A study of Mus musculus with 10 samples.

Results

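The integrin and laminin genes were all rows of the count table whose mouse symbol names an integrin alpha or beta subunit or a laminin alpha, beta or gamma chain. This gave 37 of 43346 genes, of which 26 encode integrin subunits (18 alpha and 8 beta) and 11 encode laminin chains. RNA-seq gene counts came from O9-1, a mouse cranial neural crest cell line, with 4 wildtype libraries, 3 clones in which CRISPR/Cas9 editing had been directed at *Kat5* (Kat5/1 to Kat5/3, Kat5 ko) and 3 clones with editing directed at *Ep400* (Ep400/1 to Ep400/3, Ep400 ko). Kat5 is the histone acetyltransferase and Ep400 the ATP-dependent remodeler of the Tip60/Ep400 chromatin complex. Each ko library is a different single-cell-derived clone, and the wildtype libraries are separate samples of the unedited line. Every *Kat5* allele of the Kat5 ko clones carried a frameshift, whereas only Ep400/1 had frameshifts in all *Ep400* alleles, and Ep400/2 and Ep400/3 also kept alleles with in-frame deletions at the ATP-binding site. All cells had been grown on Matrigel, a basement membrane extract that itself contains laminin, in medium conditioned by fibroblasts. The p-values measure the spread between these samples, and differences between ko clones and wildtype cannot be told apart from effects of cloning and sorting.

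Integrins are transmembrane receptors built from an alpha and a beta subunit, and the pair decides which matrix protein is bound. Laminins are trimers of an alpha, a beta and a gamma chain that assemble into basement membranes and are bound by integrins such as α3β1, α6β1, α7β1 and α6β4. Neural crest cells leave the neural tube and migrate over laminin- and fibronectin-containing matrix, and integrins provide the grip for this movement.

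Library totals ranged from 30968945 to 48301792 counts, and integrin and laminin genes together took between 0.238% and 0.305% of them. In the Kat5 ko clones, *Kat5* was lower by a log2-fold change of -1.40 (SE 0.17, edgeR adjusted p = 0.0207), with 16.4 to 23.2 counts per 1000000 (CPM) against 48.8 to 57.5 in wildtype. *Ep400* was lower by -1.44 (SE 0.12, edgeR adjusted p = 0.0012) in the Ep400 ko clones. Of 15 markers of cranial neural crest and its mesenchyme, 9 exceeded 1 CPM in all wildtype libraries, among them *Twist1*, *Snai2* and *Prrx1*, while *Sox10* and *Foxd3* had 0 counts in all 10 libraries. The summed level of these markers was 1103 to 1322 CPM in wildtype, 1117 to 1194 CPM in Kat5 ko and 1324 to 2605 CPM in Ep400 ko. Most of the highest sum, that of Ep400/3, was *Prrx1* (2156 CPM). The other listed markers went in both directions in Ep400 ko. *Snai1* was at 14.2 to 16.9 CPM in Ep400 ko against 17.2 to 24.1 CPM in wildtype, and *Ets1* at 56.5 to 89.9 against 89.5 to 122 CPM. In contrast, *Tfap2a* was at 57.6 to 114 CPM in Ep400 ko against 19.4 to 44.7 CPM in wildtype. *Snai2* was at 41.7 to 62.9 against 19.5 to 34.7 CPM, and *Twist1* at 82.3 to 121 against 62.1 to 79.4 CPM. Smooth muscle markers summed to 685 CPM in Kat5/1 and to between 0.461 and 58.8 CPM in the other 9 libraries. The sum in Kat5/1 was *Acta2* at 504 CPM and *Tagln* at 180 CPM, while *Cnn1*, *Myh11*, *Myocd* and *Des* were at most 0.0826 CPM there. Mitochondrial genes took 1.20% to 2.43% of counts in wildtype, 0.893% to 1.24% in Kat5 ko and 1.58% to 3.24% in Ep400 ko, and the part of these marker levels and shares in the integrin and laminin values was not tested. Within a bulk sample, fewer cells of a type and less RNA per cell cannot be told apart.

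Of the 37 genes, 25 had enough counts to be tested in all 3 comparisons, 4 in 1 or 2 of them, and 8 in none. The 8 untested genes were *Itga11*, *Itgad*, *Itgae*, *Itgal*, *Itgam*, *Itgb6*, *Lama1* and *Lama2*, with at most 12 counts in a library. *Lama1*, which encodes the alpha chain of the earliest embryonic basement membranes, had 0 counts in every library. As 3 counts correspond to 0.0621 to 0.0969 CPM at these depths, lower levels were not detectable, and such limits cover counting error only. *Itgb6*, a subunit of epithelial cells, had a single count in the whole series.

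Per length of exon, the genes spanned several orders of magnitude in wildtype. Levels that compare genes are given as CPM per kb, and levels that compare libraries as CPM. *Itgb1*, the beta subunit shared by most matrix-binding integrins, stood highest at 170 ± 14.1 CPM per kb (SD, n = 4). It was followed by the laminin chains *Lamb1* at 44.7 ± 7.04 and *Lamc1* at 42.0 ± 9.90 CPM per kb, by the fibronectin receptor subunit *Itga5* at 37.6 ± 4.45, by *Itga3* at 26.5 ± 5.58, and by *Lama5* (20.4 ± 8.36) and *Itga6* (20.3 ± 2.42). From *Lamb1* to *Itga6*, the wildtype ranges of each neighbouring pair in this order overlapped. Within every wildtype library *Itga5* was nevertheless above *Itga3*, whereas the order of the other neighbours changed between libraries. *Itgb5* at 12.8 ± 1.18, *Itgav* at 11.2 ± 2.48, *Itgb7* at 10.3 ± 3.96 and *Lamb2* at 9.83 ± 3.19 CPM per kb formed a group whose neighbours changed order between wildtype libraries. All other genes had wildtype means of at most 4.25 CPM per kb (*Itga8*). Among tested genes the lowest wildtype mean was that of *Itgax*, a leukocyte subunit, at 0.00281 CPM per kb.

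**Figure D1:**
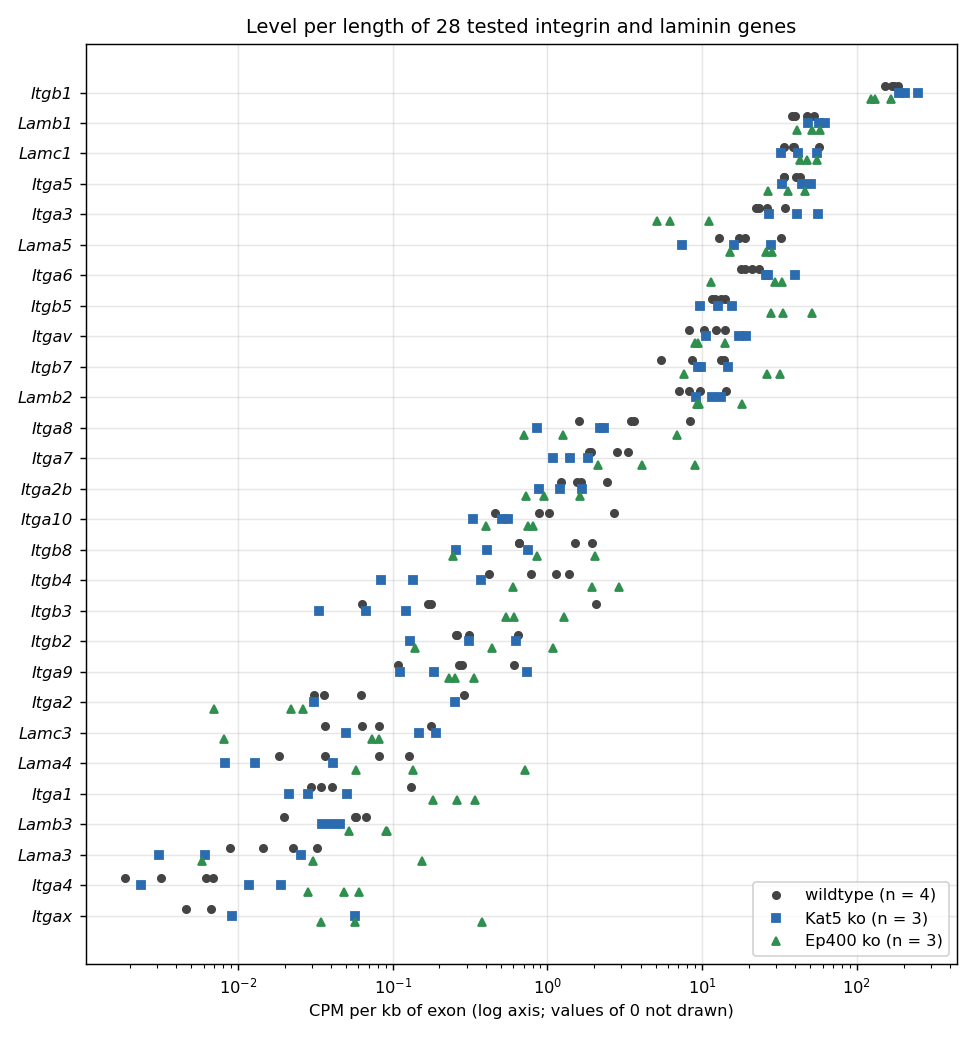
Level of 28 of the 29 integrin and laminin genes tested in at least 1 comparison, in CPM per kb of exon on a log axis, ordered by wildtype mean (highest at the top). Each point is a library; *Itgb1* lies to the right of all other genes, and the Ep400 ko points of *Itga3* lie to the left and those of *Itgb5* to the right of the wildtype points.

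The most abundant chain of each class was the one found in laminin-511, the trimer of alpha 5, beta 1 and gamma 1 chains. *Lama5* supplied 99.1% to 99.8% of the summed per-length level of laminin alpha chains in wildtype, 98.8% to 99.9% in Kat5 ko and 97.0% to 99.6% in Ep400 ko. *Lamb1* made up 78.7% to 87.1% of laminin beta chains in wildtype, and *Lamc1* 93.3% to 95.2% of gamma chains. The remaining beta level was almost entirely *Lamb2*, at 12.8% to 21.3%. These shares are of RNA and were not tested between groups.

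Among integrin beta subunits, *Itgb1* made up 82.9% to 89.1% of the summed per-length level in wildtype and 86.8% to 91.1% in Kat5 ko, but 65.7% to 70.5% in Ep400 ko. The share of *Itgb5* was 5.85% to 7.75% in wildtype, 4.28% to 5.90% in Kat5 ko and 14.2% to 27.2% in Ep400 ko. Among alpha subunits *Itga5* led in every wildtype library, at 34.1% to 38.0%. *Itga3* contributed 22.4% to 29.3% in wildtype, 18.7% to 43.0% in Kat5 ko and 4.97% to 11.8% in Ep400 ko. *Itgb7*, which also enters the beta sum, was at 26.1, 31.7 and 7.67 CPM per kb in Ep400/1 to Ep400/3. Its wildtype range was 5.41 to 13.8 CPM per kb. The Ep400 ko clones thus lay outside the wildtype range for the shares of *Itgb1*, *Itgb5* and *Itga3*. As a description, this follows in part from the levels of *Itga3*, *Itgb5* and, in Ep400/1 and Ep400/2, *Itgb7* themselves.

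**Figure D2:**
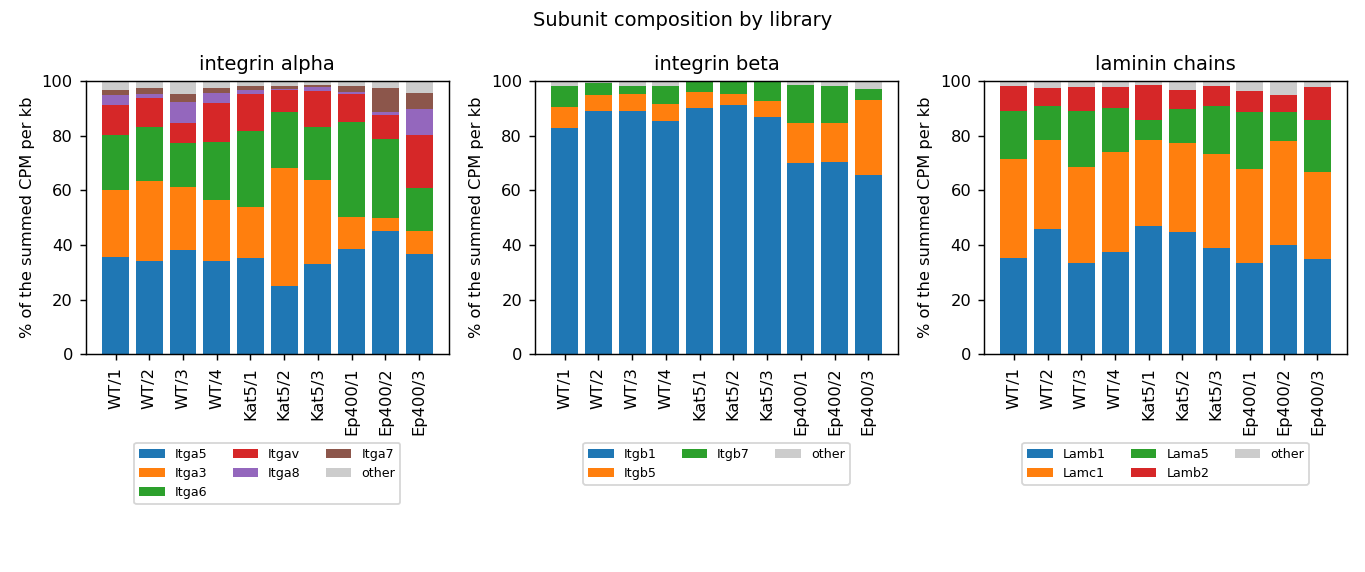
Stacked bars of each library's integrin alpha, integrin beta and laminin RNA, as the percentage of the summed CPM per kb of that class. In the beta panel *Itgb1* takes 65.7% to 70.5% of the Ep400 ko bars and 82.9% to 91.1% of the other bars.

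In Ep400 ko clones, 4 of the 27 tested integrin and laminin genes differed from wildtype, all of them integrin subunits. *Itgb5*, *Itga1* and *Itga4* rose and *Itga3* fell. Of all 13836 genes tested in this comparison, 13.7% were called at an adjusted p of at most 0.05, so that 4 of 27 is near the background. Under a stricter rule that added a minimum size of 1 for the log2-fold change in either direction and a group mean over 100 normalized counts, 3 of the 27 passed (all but *Itga4*), beside 6.42% of all genes. Groups did not overlap for 3 higher genes and 1 lower gene, beside 16.1% and 14.1% of all genes. DESeq2, which kept 36 members, called 7 of them, beside 14.1% of all genes it kept. The median log2-fold change of the 27 genes was 0.27, beside 0.04 for all genes tested.

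*Itga3* (ENSMUSG00000001507, chr11:95044474-95076801, minus strand, GRCm38) encodes the alpha subunit of the laminin receptor α3β1. Its level was 132, 197, 149 and 127 CPM in the wildtype libraries, and 63.5, 29.2 and 35.2 CPM in Ep400/1 to Ep400/3. All Ep400 ko clones thus lay under all wildtype libraries, with Ep400/1 nearest to them. *Itga3* fell 3.55-fold (log2-fold change -1.83, SE 0.29, edgeR adjusted p = 0.00801), and without any 1 of the 7 libraries it remained called, at log2-fold changes of -2.23 to -1.63. The genes of chromosome 11 were shifted by a median of -0.17, -0.19 and -0.20 on the log2 scale in the Ep400 ko clones, and with each chromosome's shift taken out *Itga3* was still called, as were 13.1% of all genes.

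*Itgb5* (ENSMUSG00000022817, chr16:33829665-33949338, plus strand) encodes the beta subunit that pairs with αv to bind vitronectin. It stood at 50.2, 43.2, 40.8 and 47.3 CPM in wildtype, the second-narrowest spread of all members, and at 99.0, 119 and 181 CPM in Ep400 ko. All Ep400 ko clones lay above all wildtype libraries, and Ep400/3 was the highest. *Itgb5* rose 2.93-fold (log2-fold change 1.55, SE 0.21, edgeR adjusted p = 0.00448) and remained called without any 1 of the 7 libraries (1.26 to 1.72). Its partner *Itgav* was at 88.9 to 150.4 CPM in wildtype and at 96.4 to 151 CPM in Ep400 ko, with a log2-fold change of -0.05 (SE 0.23, edgeR adjusted p = 0.892).

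*Itga1* (ENSMUSG00000042284, chr13:114953096-115101964, minus strand) encodes the alpha subunit of the collagen and laminin receptor α1β1. It was a low-abundance transcript, with 0.639, 0.549, 2.43 and 0.751 CPM in wildtype and 4.81, 3.40 and 6.32 CPM in Ep400 ko. The groups do not overlap, but the third wildtype library, WT/3, lay far above the other wildtype libraries. *Itga1* rose 4.42-fold (log2-fold change 2.14, SE 0.57, edgeR adjusted p = 0.0399). This call held without WT/3 (log2-fold change 2.88, edgeR adjusted p = 0.00754) and was lost without any other single library, with adjusted p between 0.055 and 0.109, namely WT/1, WT/2, WT/4, Ep400/1, Ep400/2 and Ep400/3. It was also lost once chromosome shifts were taken out (edgeR adjusted p = 0.0543, in a range of 0.00105 to 0.0871 over the 10 other settings), the median shift of chromosome 13 being 0.10, 0.13 and 0.19 on the log2 scale in the Ep400 ko clones. *Pelo* lies inside an intron of *Itga1* on the same strand and shares 0 exon bases with it, and its log2-fold change was 0.08 (SE 0.24, edgeR adjusted p = 0.853). The adjacent *Itga2*, 21 kb away, encodes another collagen-binding alpha subunit. *Itga2* was at 0.0497 to 0.188 CPM in Ep400 ko and 0.221 to 2.05 CPM in wildtype, with WT/2 the highest. It did not pass edgeR's filter on low counts, and DESeq2, which kept it, called it lower.

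*Itga4* (ENSMUSG00000027009, chr2:79255426-79333123, plus strand) encodes the alpha subunit of receptors for fibronectin and VCAM1 and is known from migrating neural crest and from leukocytes. It had 3, 3, 1 and 2 counts in the wildtype libraries and 29, 27 and 16 counts in the Ep400 ko clones. Summed over libraries and scaled by depth, the ratio was 10.4 (95% counting interval 5.19 to 23.7), and the fit gave a rise with edgeR adjusted p = 0.0092. The counting interval leaves out the spread between libraries. The wildtype level of 0.0261 to 0.0958 CPM is at the limit of detection, and even in Ep400 ko the level was at most 0.843 CPM. *Cerkl* on the opposite strand shares 1124 exon bases with *Itga4* and had 5 to 28 counts in wildtype and 10, 19 and 101 in Ep400 ko; reads of both can be told apart only if counting used the strand, which was not given in the sources used here.

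**Figure D3:**
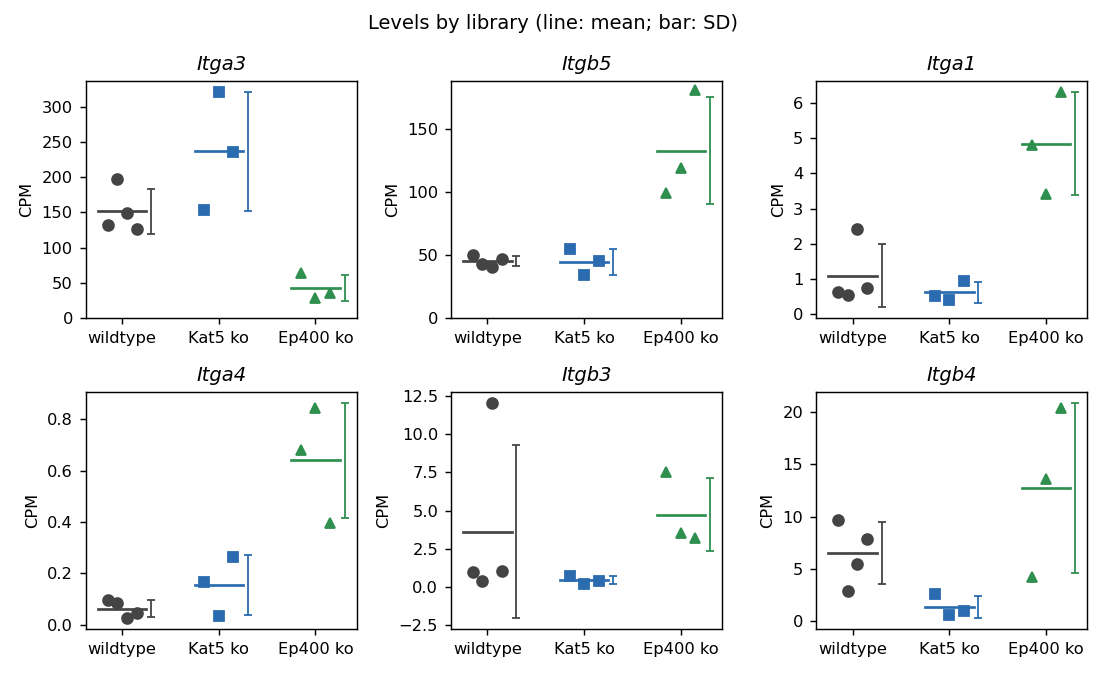
CPM of 6 integrin genes in each library (points), with the group mean (line) and SD (bar beside the points). *Itga3* is lowest in Ep400 ko at 29.2 to 63.5 CPM, *Itgb5* highest there at 99.0 to 181 CPM, and *Itgb3* has a lone high wildtype point at 12.1 CPM.

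Promoter sequences of these 4 genes are shown because they are the members called in Ep400 ko, with 250 bases before and 50 after the annotated start, read 5′ to 3′ on the gene's strand from RefSeq (GRCm38.p6). Capitals mark each GGGCGG, the core of the GC box bound by Sp1-type factors, or its reverse complement CCGCCC. *Itga3* (chr11:95076665-95076964, minus strand) and *Itgb5* (chr16:33829415-33829714, plus strand) hold 3 each, *Itga4* (chr2:79255176-79255475, plus strand) holds 1, and *Itga1* (chr13:115101915-115102214, minus strand) holds 0.
Itga3: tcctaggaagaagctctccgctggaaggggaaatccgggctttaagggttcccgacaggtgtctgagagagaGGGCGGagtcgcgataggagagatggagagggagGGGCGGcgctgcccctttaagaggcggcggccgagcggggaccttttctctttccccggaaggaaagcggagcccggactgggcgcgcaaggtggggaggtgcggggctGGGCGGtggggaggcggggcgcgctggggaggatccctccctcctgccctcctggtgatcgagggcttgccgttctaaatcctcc
Itgb5: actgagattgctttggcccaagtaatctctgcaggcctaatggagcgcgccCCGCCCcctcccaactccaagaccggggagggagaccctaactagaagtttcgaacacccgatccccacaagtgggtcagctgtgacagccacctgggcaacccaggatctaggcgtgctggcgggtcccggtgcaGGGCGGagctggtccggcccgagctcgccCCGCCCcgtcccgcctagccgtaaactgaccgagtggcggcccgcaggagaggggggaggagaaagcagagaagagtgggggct
Itga1: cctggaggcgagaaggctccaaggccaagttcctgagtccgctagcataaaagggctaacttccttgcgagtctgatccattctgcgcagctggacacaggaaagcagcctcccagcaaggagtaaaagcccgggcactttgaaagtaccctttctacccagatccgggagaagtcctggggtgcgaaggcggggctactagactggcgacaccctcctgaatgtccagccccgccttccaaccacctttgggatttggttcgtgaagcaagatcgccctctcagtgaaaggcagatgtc
Itga4: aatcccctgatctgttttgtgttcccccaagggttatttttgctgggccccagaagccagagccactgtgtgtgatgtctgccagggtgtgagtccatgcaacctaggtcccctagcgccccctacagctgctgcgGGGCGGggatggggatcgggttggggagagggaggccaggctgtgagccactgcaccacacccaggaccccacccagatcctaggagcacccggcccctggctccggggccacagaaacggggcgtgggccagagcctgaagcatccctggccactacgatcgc

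Of the 37 genes, 23 had a promoter entry in RefSeq, and 11 of these held GGGCGG or its complement, beside 35.7% of all 32851 promoters of the same length. TATAAA, the TATA box, was found on either strand in 0 of the 23, beside 13.6% of all promoters. The promoters of *Itga3* and *Itgb5* held 24 and 20 CpG dinucleotides and those of *Itga1* and *Itga4* 12 and 10, beside a median of 7 over all promoters. The fallen *Itga3* and the risen *Itgb5* are thus alike in CpG and GC box counts. These letter matches describe the windows only.

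The other laminin-binding integrin subunits did not pass the test in Ep400 ko. *Itga6*, which pairs with β1 or β4, was at 171, 211, 162 and 190 CPM in wildtype and at 295, 267 and 103 CPM in Ep400 ko, so that Ep400/1 and Ep400/2 lay above and Ep400/3 below all wildtype libraries. Its log2-fold change was 0.27 (SE 0.32, edgeR adjusted p = 0.586), and without Ep400/3 it was 0.61 with an edgeR adjusted p of 0.0359, against 0.0359 to 0.987 over the 7 left-out libraries. The ratio of *Itga3* to *Itga6* per length was 1.06 to 1.47 in wildtype and 0.340, 0.173 and 0.540 in the Ep400 ko clones. In Kat5 ko it was 0.676, 2.11 and 1.59. *Itga6* was thus the more abundant of these laminin-receptor alpha subunits in all Ep400 ko clones and in Kat5/1, and *Itga3* in all wildtype libraries and the other Kat5 ko clones. *Itga7*, a laminin receptor subunit of muscle, was at 15.5, 22.8, 26.9 and 15 CPM in wildtype and 17.0, 72.6 and 33.0 CPM in Ep400 ko (log2-fold change 1.03, SE 0.44, edgeR adjusted p = 0.148). It was called without Ep400/1 (log2-fold change 1.39, edgeR adjusted p = 0.039, in a range of 0.039 to 0.588 over the left-out libraries), and its log2-fold change was 0.30 without Ep400/2. *Itgb1* was at 616, 755, 691 and 707 CPM in wildtype and 535, 679 and 501 CPM in Ep400 ko (log2-fold change -0.28, SE 0.16, edgeR adjusted p = 0.272). *Itgb4*, the hemidesmosome subunit, was at 9.70, 2.92, 5.48 and 7.91 CPM in wildtype and 4.2, 13.6 and 20.4 CPM in Ep400 ko (log2-fold change 0.97, SE 0.54, edgeR adjusted p = 0.249).

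Fibronectin- and RGD-binding subunits other than *Itga4* and *Itgb5* were not called. *Itga5* was at 167, 198, 210 and 167 CPM in wildtype and 178, 228 and 131 CPM in Ep400 ko, a log2-fold change of -0.05 (SE 0.20, edgeR adjusted p = 0.881). *Itga8*, which binds nephronectin and fibronectin, spread from 11.8 to 61.4 CPM in wildtype and from 5.18 to 50.5 CPM in Ep400 ko. *Itgb8*, which activates latent TGF-beta together with αv, was at 7.22 to 21.6 CPM in wildtype and 2.7 to 22.6 CPM in Ep400 ko. *Itgb3*, the other RGD-binding partner of αv, was at 0.990, 0.376, 12.1 and 1.04 CPM in wildtype and 7.5, 3.56 and 3.18 CPM in Ep400 ko. All 3 Ep400 ko clones lay above 3 of the wildtype libraries and below WT/3, and the log2-fold change of 0.39 (SE 1.05, edgeR adjusted p = 0.827) became 2.55 without WT/3, with an edgeR adjusted p of 0.0285 in a range of 0.0285 to 0.996 over the left-out libraries.

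Leukocyte-type subunits were low except for *Itgb7*. *Itgb7*, which pairs with α4 or αE, was at 38.1, 23.9, 15 and 36.6 CPM in wildtype and 72.3, 87.7 and 21.2 CPM in Ep400 ko (log2-fold change 1.09, SE 0.47, edgeR adjusted p = 0.152). It was called without Ep400/3 (log2-fold change 1.49, edgeR adjusted p = 0.0376, in a range of 0.0376 to 0.392 over the left-out libraries). In contrast, its partners *Itga4* and *Itgae* had at most 0.0958 and 0.192 CPM in wildtype. Of 10 leukocyte markers, *Cd52*, *Tyrobp* and *Cd3e* had 0 counts in all libraries, and the summed marker level of 5.32 to 6.74 CPM in wildtype, 3.16 to 6.92 in Kat5 ko and 3.40 to 8.28 in Ep400 ko came mostly from *Cd68*. *Itgb2* was at 0.782 to 1.96 CPM in wildtype and 0.423 to 3.31 CPM in Ep400 ko. *Itgax* had at most 1 count in a wildtype library, and 7, 58 and 11 counts in the Ep400 ko clones.

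**Figure D4:**
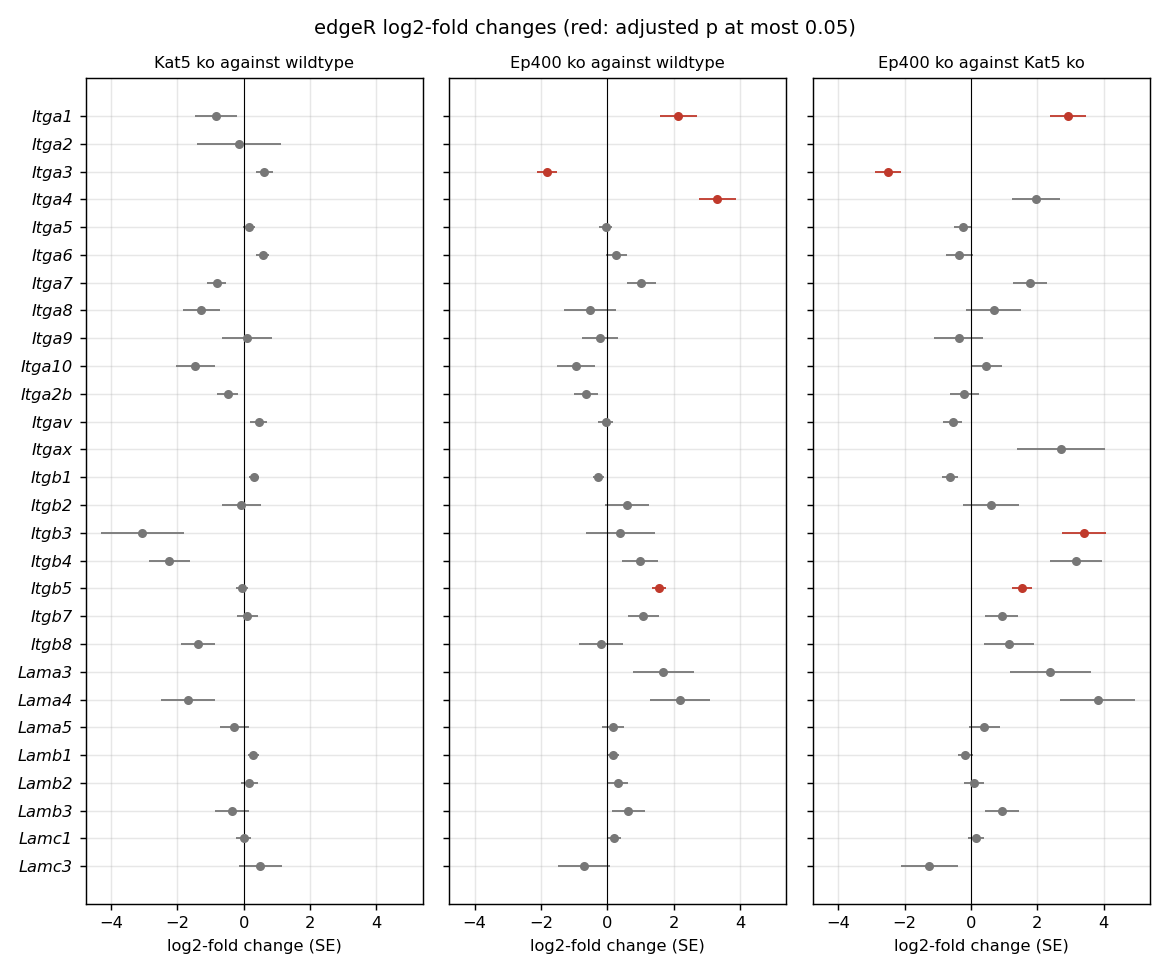
Log2-fold changes of 28 tested integrin and laminin genes in the 3 comparisons (points) with their SE (bars); red marks an edgeR adjusted p of at most 0.05. The Kat5 ko panel has 0 red points, and the Ep400 ko panels have 4 each.

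None of the laminin chains was called by edgeR in the main fit of any comparison. In Ep400 ko the 9 tested chains had log2-fold changes of -0.71 to 2.19 with a median of 0.32, and 2 of them had an unadjusted p of at most 0.05, as had 32.2% of all genes. *Lama5* was at 215, 147, 368 and 197 CPM in wildtype and 293, 172 and 320 CPM in Ep400 ko (edgeR adjusted p = 0.751). *Lamb1* was at 375, 474, 526 and 397 CPM in wildtype and 408, 574 and 510 CPM in Ep400 ko (edgeR adjusted p = 0.563). For *Lamc1* the values were 317, 280, 467 and 326 CPM in wildtype and 352, 458 and 390 CPM in Ep400 ko (edgeR adjusted p = 0.521). The chains of the main trimer thus overlapped between the groups, with SE of 0.18 to 0.33 on the log2 scale.

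*Lama3* and *Lamb3*, which encode chains of epithelial laminins, were at most 1.67 and 0.610 CPM in any library. *Lama4*, found in vessels and mesenchyme, was at 0.224, 0.982, 1.54 and 0.442 CPM in wildtype, 0.496, 0.0988 and 0.154 CPM in Kat5 ko and 0.703, 1.62 and 8.63 CPM in Ep400 ko. Its log2-fold change of 2.19 in Ep400 ko was 0.54 without Ep400/3. DESeq2 called *Lama4* higher in Ep400 ko than in wildtype and than in Kat5 ko. A single edgeR fit of all libraries also called it against Kat5 ko. *Lamb2* was at 42.8 to 87.2 CPM in wildtype, 55.1 to 79.9 CPM in Kat5 ko and 56.4 to 109.8 CPM in Ep400 ko, and *Lamc3* at most 1.15 CPM in any library.

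In Kat5 ko clones, 0 of the 26 tested integrin and laminin genes were called by edgeR, beside 0.625% of all 13434 genes. At an unadjusted p of at most 0.05 there were 7 of 26 (2 higher and 5 lower), beside 22.3% of all genes. DESeq2, which kept 36 members, called 2 (*Itgb4* and *Itgb8*), beside 6.32% of all genes it kept, and limma called 0, beside 0.655%. The stricter rule also gave 0 of 26, beside 0.476% of all genes. The median log2-fold change was -0.06. *Itga6* and *Itgb1* lay above all wildtype libraries in all 3 clones and *Itgb4* and *Itga7* below them, which is 2 of 26 in each direction, beside 9.66% and 10.2% of all genes.

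*Itgb4* had the smallest p-value among members in Kat5 ko, with 2.62, 0.593 and 0.947 CPM against 2.92 to 9.70 CPM in wildtype (log2-fold change -2.25, SE 0.62, edgeR adjusted p = 0.0999). *Itga6* was at 358, 241 and 234 CPM in Kat5 ko (log2-fold change 0.57, SE 0.19, edgeR adjusted p = 0.14). *Itga7* was at 14.8, 11.3 and 8.75 CPM (log2-fold change -0.81, SE 0.28, edgeR adjusted p = 0.151), and *Itgb1* at 1010, 839 and 761 CPM (0.30, SE 0.15, edgeR adjusted p = 0.268). For *Itga3*, the Kat5 ko values of 153, 321 and 236 CPM overlapped those of wildtype (log2-fold change 0.61, SE 0.26, edgeR adjusted p = 0.204). Without Kat5/1, *Itga3* (log2-fold change 0.85, edgeR adjusted p = 0.0298), *Itga7* (-1.04, 0.0468) and *Itgb4* (-3.09, 0.0136) were called. Over all 7 left-out libraries their adjusted p ranged up to 0.497, 0.372 and 0.271, respectively. Kat5/1 is the clone with the highest *Acta2* and *Tagln* levels, and their part in these values was not tested.

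*Itgb5* was at 55.1, 34.3 and 45.1 CPM in Kat5 ko, with a log2-fold change of -0.04 (SE 0.19, edgeR adjusted p = 0.91). *Itga5* was at 249, 162 and 216 CPM (edgeR adjusted p = 0.668) and *Itgav* at 206, 113 and 185 CPM (edgeR adjusted p = 0.317). *Itga8* was at 6.26 to 17.1 CPM, *Itgb8* at 2.84 to 8.24 CPM and *Itgb3* at 0.198 to 0.716 CPM. *Itgb3* in Kat5 ko thus overlapped wildtype apart from WT/3, and its log2-fold change of -3.06 was -0.88 without WT/3. *Itga4* had 6, 1 and 12 counts, did not pass edgeR's filter in this comparison and was not tested. Its ratio to wildtype over summed counts was 2.82 (95% counting interval 1.21 to 7.07). That interval leaves out the spread between clones, and Kat5/2 at 0.0329 CPM lay within the wildtype range of 0.0261 to 0.0958 CPM. Among laminins, *Lama5* was at 84.0, 183 and 317 CPM, *Lamb1* at 478, 564 and 618 CPM and *Lamc1* at 266, 344 and 456 CPM, and the edgeR adjusted p of the 8 tested chains was at least 0.258.

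Directly compared with Kat5 ko, Ep400 ko clones had 4 of 28 tested integrin and laminin genes called, beside 7.05% of all 13587 genes. Of the 4, 3 were higher and 1 lower, beside 4.22% and 2.83% of all genes, and 9 members had an unadjusted p of at most 0.05, beside 32.4%. DESeq2, which kept 35 members, called 7 of them, beside 13.5% of all genes it kept. A single fit of all 10 libraries called 8 of the 28, of which 3 were among these 4, beside 26.1% of all genes. *Itgb3* was 10.6-fold higher (log2-fold change 3.40, SE 0.66, edgeR adjusted p = 0.0355), with 3.18 to 7.5 CPM in Ep400 ko and 0.198 to 0.716 CPM in Kat5 ko, and was not called in the single fit (edgeR adjusted p = 0.0569, in a range of 5.3e-07 to 0.0569 over 10 settings with all libraries, the lowest by DESeq2). *Itga1* was higher by 2.93 on the log2 scale (SE 0.54, edgeR adjusted p = 0.0324), with 0.523, 0.395 and 0.947 CPM in Kat5 ko. *Itgb5* was higher by 1.54 (SE 0.29, edgeR adjusted p = 0.0336) and *Itga3* lower by a log2-fold change of -2.49 (SE 0.39, edgeR adjusted p = 0.0271), which is 5.61-fold. All 4 also passed the stricter rule, beside 5.36% of all genes. *Itgb4* narrowly missed the threshold (log2-fold change 3.17, SE 0.78, edgeR adjusted p = 0.0526), with all 3 Ep400 ko clones above all Kat5 ko clones. Groups did not overlap for 8 higher and 2 lower genes of 28, beside 20.5% and 18% of all genes, and the median log2-fold change was 0.65 beside 0.01 for all genes.

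These direct calls depended on single clones. Leaving out Kat5/2, Kat5/3, Ep400/2 or Ep400/3 left 0 called members, without Ep400/1 there were 2 (*Itga3* and *Itgb5*), and without Kat5/1 there were 5. The direction of the 4 genes did not change in these fits, with log2-fold changes of -2.90 to -2.22 for *Itga3*, 1.26 to 1.72 for *Itgb5*, 2.67 to 3.37 for *Itga1* and 2.90 to 3.95 for *Itgb3*. With only 3 clones a group, leaving out a clone leaves 2 on its side.

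**Figure D5:**
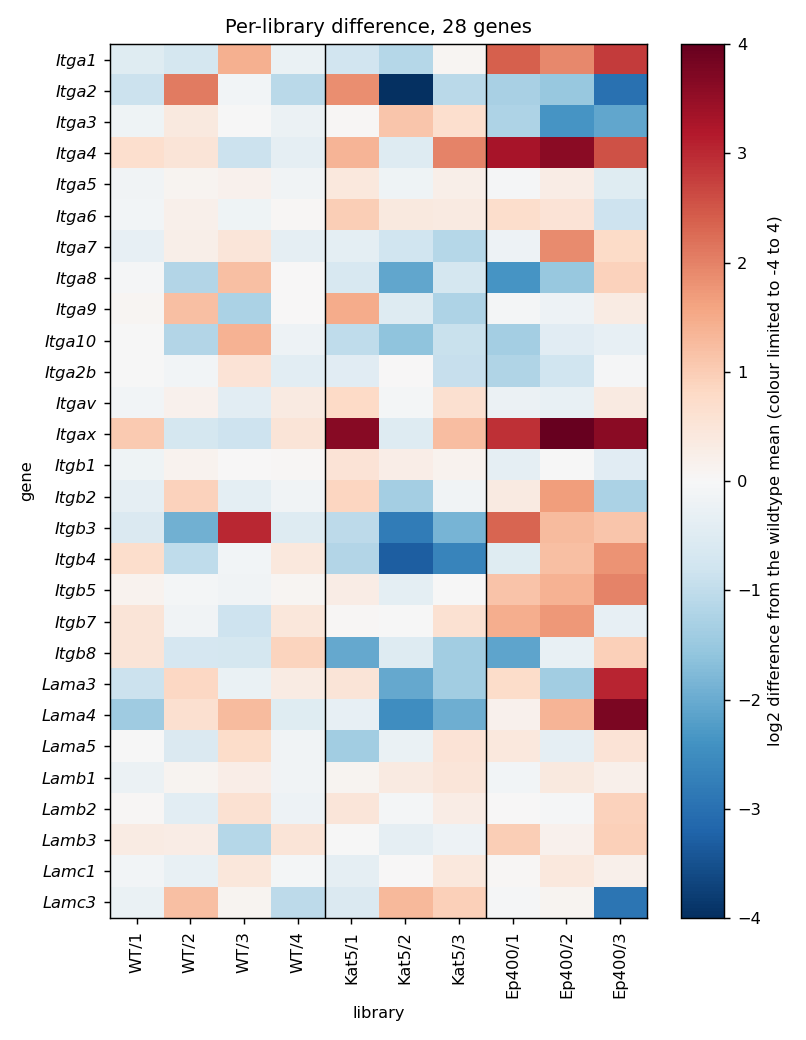
Difference of each library from the wildtype mean for 28 integrin and laminin genes, on the log2 scale of CPM plus a pseudocount of 0.5, with colours limited to -4 to 4. *Itga3* is blue and *Itgb5*, *Itga1* and *Itga4* are red in all Ep400 ko columns, and WT/3 is red for *Itgb3*.

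The spread among replicates was itself uneven. In wildtype, the highest library exceeded the lowest 1.22-fold for *Itgb1*, 1.23-fold for *Itgb5* and 1.26-fold for *Itga5*, but 6.89-fold for *Lama4*, 9.29-fold for *Itga2* and 32.2-fold for *Itgb3*, with a median of 2.53-fold over the 28 tested genes above 0 in all 4 libraries. WT/3 was the highest wildtype library for 13 of 29 tested genes and WT/4 for 3. Kat5/1 was the highest Kat5 ko clone for 17 of the 29 and Kat5/2 the lowest for 17. Among Ep400 ko clones Ep400/3 was highest for 13. The 3 genes with the narrowest wildtype spread were thus among the abundant subunits, and those with the widest were of low level.

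Genes that act together with integrins were counted in 3 lists of linkers and kinases, other basement membrane components and laminin-binding genes, and other integrin ligands, of which 68 listed genes were in the table. In Ep400 ko, 12 of 62 tested list genes were called (8 higher and 4 lower), beside 8% and 5.72% of all genes called higher and lower. Among linkers and kinases 2 of 26 were called, beside 13.7% of all genes in either direction. *Lims2*, an adaptor that joins integrin-linked kinase, rose 28.7-fold (edgeR adjusted p = 0.00281) from a mean of 4.82 to 144 normalized counts, and *Flna*, an actin crosslinker that binds integrin beta tails, fell 1.66-fold (edgeR adjusted p = 0.0212). Of 17 basement membrane and laminin-binding genes 3 rose, namely the syndecans *Sdc2* (2.59-fold, edgeR adjusted p = 0.0244) and *Sdc4* (2.17-fold, edgeR adjusted p = 0.0142) and the laminin receptor dystroglycan, *Dag1* (1.5-fold, edgeR adjusted p = 0.0424).

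Among other integrin ligands 7 of 19 were called in Ep400 ko (4 higher and 3 lower), beside 13.7% of all genes. *Fbln5* rose 3.03-fold (edgeR adjusted p = 0.0124), *Thbs2* 2.62-fold (edgeR adjusted p = 0.0485) and *Fn1*, which encodes fibronectin, 2.44-fold (edgeR adjusted p = 0.0152). *Tnc*, which encodes tenascin-C, fell 12.7-fold (edgeR adjusted p = 0.00994), *Fbn2* 9.11-fold (edgeR adjusted p = 0.0146) and *Cyr61* 2.74-fold (edgeR adjusted p = 0.0146). The remaining called ligand was *Spp1*, which encodes osteopontin and rose 1.70-fold. The called ligands thus went in both directions in the clones in which *Itgb5* and the low-level *Itga4* rose, while *Itga5* and *Itgav* were not called. Whether ligand and receptor RNA move together was not tested.

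In Kat5 ko, 3 of 60 list genes were called, all among the ligands, beside 0.179% of all genes called higher and 0.447% called lower. *Ctgf* rose 7.11-fold (edgeR adjusted p = 0.045) and *Cyr61* 3.54-fold (edgeR adjusted p = 0.0493), whereas *Edil3* fell 4.93-fold (edgeR adjusted p = 0.0493). Both *Ctgf* and *Cyr61* encode secreted matricellular proteins bound by integrins. In the direct comparison 9 of 62 list genes were called (4 higher and 5 lower), beside 7.05% of all genes (4.22% higher and 2.83% lower). *Lims2* (20.3-fold), *Tns1* (2.58-fold), *Nid2* (11.2-fold) and *Spp1* (2.78-fold) were higher and *Tnc* (37.1-fold), *Cyr61* (10.1-fold), *Ctgf* (6.67-fold), *Flna* (2.79-fold) and *Bcar1* (1.88-fold) lower in Ep400 ko than in Kat5 ko, at edgeR adjusted p of 0.00601 to 0.046. The number of called list genes varied with single libraries, from 0 to 11 in Kat5 ko (11 without Kat5/1, at most 1 without any other library), from 7 (without WT/1) to 14 in Ep400 ko, and from 0 (without Ep400/3) to 15 (without Kat5/1) in the direct comparison.

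Members lay on 14 chromosomes, with 7 on chromosome 2 and 5 on chromosome 11. Neighbouring pairs within 100 kb included *Itga1* and *Itga2*, *Itgam* and *Itgax*, and *Itgax* and *Itgad*. Of the 5 members on chromosome 11, *Itga3* fell in Ep400 ko and *Itgae* was not tested. There *Itgb3*, *Itgb4* and *Itga2b* had log2-fold changes of 0.39, 0.97 and -0.64 that did not pass the test.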

How the data were processed

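RNA of 4 wildtype, 3 Kat5 ko and 3 Ep400 ko O9-1 samples had been sequenced by the authors as paired reads from a stranded poly-A kit. The submitters' notes name bcl2fastq 2.20, STAR 2.7.3, R 4.2.1, DESeq2 1.36.0 and mm10; the counting program, its strand setting and the annotation were not given in the sources used here. The deposited counts are whole, unnormalized read counts per gene. The deposited normalized tables, which the authors made per knockout, were not used here.

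Samples were grouped by their labels, and each comparison was fitted on its own groups in R 4.3.3 with edgeR 4.0.16 (filterByExpr with a minimum count of 10, TMM, robust quasi-likelihood test), with Benjamini-Hochberg adjustment over all genes tested, 13434 to 13836 per comparison. Genes with an adjusted p of at most 0.05 were called. DESeq2 1.42.0 and limma 3.58.1 (voom), other scalings and filters, removal of chromosome shifts and leaving out libraries were alternatives. Genes kept by DESeq2 were all those with a count in the libraries compared, 22025 to 22532 per comparison. Its shares include kept genes without an adjusted p, so they cannot be set directly against those of edgeR. CPM in the text use TMM factors over all 10 libraries, so that ratios of CPM can differ slightly from fitted folds. CPM per kb divide by the union of exons in GENCODE M21 (GRCm38, the build mm10). The fit was tested on simulated data.

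Counting error alone did not account for the spread among replicates, whose chi-square statistic was 27.3 to 261 times its degrees of freedom, so all were kept separate. The members and lists were chosen with earlier results of these data known. Genes were named where a member was called, where a member is a laminin chain or a laminin-, fibronectin- or RGD-binding subunit, or where its level was highest or lowest, and at most 3 called list genes per list and direction. *Itgb7*, *Itgb2*, *Itgax*, *Itga2*, *Itga2b*, *Spp1* and untested members were named in addition, after their values were seen. The values of 1 tested member are not reported here; it stays in the counts and medians of members.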

Additional observations from a re-analysis of the deposited data

Results flagged for a closer look

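Within the 4 wildtype libraries, 29 genes were examined for a library far from the others. Chance alone marks about 1 in 20 if values are normally distributed. The rule was applied to CPM without a log scale, and that condition was not tested. WT/3 was far above the others for *Itgb3* (12.1 CPM, next highest 1.04) and *Itga1* (2.43 CPM, next highest 0.751), and WT/2 for *Itga2* (2.05 CPM, next highest 0.443) and *Itgb2* (1.96 CPM, next highest 0.950). WT/3 also had the highest levels of *Tfap2b* (20.3 CPM, 0.926 to 1.94 in the other wildtype libraries) and *Msx1* (49.0 CPM, 5.26 to 7.45). Whether these values move with *Itgb3* for any shared reason was not tested.

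Ep400 ko and Kat5 ko clones differed in the direct edgeR test for *Itga3* (log2-fold change -2.49, adjusted p = 0.0271), *Itgb3* (3.40, adjusted p = 0.0355), *Itga1* (2.93, adjusted p = 0.0324) and *Itgb5* (1.54, adjusted p = 0.0336). For *Itgb1* (-0.63), *Lama4* (3.82) and *Lamb3* (0.93), all Ep400 ko clones lay to the opposite side of the wildtype mean, taken on the log2 scale, from all Kat5 ko clones. The direct test of these 3 did not pass in the main fit, with edgeR adjusted p of 0.112, 0.0694 and 0.239. Some clones lay close to the wildtype mean, with log2 differences of -0.001 for *Lamb3* in Kat5/1 and -0.02 for *Itgb1* in Ep400/2. The share of all genes with such opposite sides was not counted.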

How the results depend on the processing

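Called integrin and laminin genes numbered 0, 4 and 4 for Kat5 ko and Ep400 ko against wildtype and for Ep400 ko against Kat5 ko. With DESeq2, which kept 36, 36 and 35 members, they numbered 2, 7 and 7. Called list genes numbered 3, 12 and 9, and 10, 20 and 20 with DESeq2. A single fit of all libraries called 8 members and 21 list genes in the direct comparison, and scaling by library size only called 1 list gene in Kat5 ko. With single libraries left out, called members ranged from 0 to 3, from 3 to 6 and from 0 to 5, and called list genes from 0 to 11, from 7 to 14 and from 0 to 15. The cause of these differences was not tested, beyond the smaller number of samples where libraries were left out. Apart from the block described next, other settings left these counts within 1.5 times. Scaling by library size moved the median log2-fold change of all genes in the direct comparison to 0.14, and no called member changed direction under any alternative.

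Correlations between same-numbered libraries of different groups were -0.08 to 0.21. Differently numbered libraries were not compared, so these values cannot decide whether replicate numbers pair libraries. A fit with replicate number as a block called 0 members in each comparison and 0, 3 and 3 list genes. It called 0, 168 and 213 genes in all, against 84, 1899 and 958 in the main fits. In the comparisons with wildtype, the wildtype library that shares its number with no ko clone did not contribute to the block fit. The fall in called genes there thus cannot be assigned to the block alone. In that fit *Itga3*, *Itgb5*, *Itga4* and *Itga1* in Ep400 ko had adjusted p of 0.0664, 0.0624, 0.0718 and 0.0871.

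With 3 or 4 samples a group, counts under about 3 per library and differences within the clone spread were not resolvable.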

Other observations

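Some neural crest transcription factors differed between clones in which integrin levels were also uneven. *Prrx1* was at 651 to 952 CPM in wildtype, and at 881, 964 and 2156 CPM in Ep400/1 to Ep400/3. *Pax3* was at 0.0867 to 0.183 CPM in wildtype and at 6.80, 1.31 and 6.29 CPM in Ep400 ko. Epithelial markers summed to 5.75 to 11.3 CPM in wildtype, 3.17 to 6.03 CPM in Kat5 ko and 2.58 to 4.80 CPM in Ep400 ko. These values are given as a description, and their part in the integrin and laminin levels was not tested.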
